A study of Mus musculus with 4 samples.

Results

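The genes described here are 10 antioxidant genes of the NRF2 pathway, namely Nfe2l2, Keap1, Nqo1, Hmox1, Gclc, Gclm, Txnrd1, Srxn1, Cat and Sod1. They were taken by name, located with GENCODE vM21 on GRCm38, and every peak of 4 peak lists was described that overlapped a gene body or the 10 kb on either side of its transcription start site (TSS). They are 10 of 21938 protein-coding genes on the chromosomes used. The lists came from 2 livers, 1 WT (Uhrf1-Fl/fl) and 1 Uhrf1hepKO (Uhrf1-fl/fl;Alb:Cre), in which Cre under the albumin promoter deletes Uhrf1, a factor that maintains DNA methylation, in the hepatocyte lineage. Liver cells outside that lineage keep the gene. Both were male C57Bl/6 mice of 8 to 12 weeks on a normal diet with no other treatment stated, and both alleles of Uhrf1 are floxed in the WT liver too. Each liver gave 1 ATACseq library, which reads open chromatin through the insertion of a transposase, and 1 H2A.Z ChIPseq library from chromatin digested to mononucleosomes, H2A.Z being the histone variant found at many TSSs and enhancers. With 1 library per genotype and assay there was no replicate, so no difference between WT and Uhrf1hepKO could be tested, and liver and genotype cannot be told apart. In whole liver, fewer cells with a signal and less signal per cell cannot be told apart either.

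NRF2, encoded by Nfe2l2, is a transcription factor that is made continuously and held in the cytoplasm by KEAP1, which presents it to a ubiquitin ligase for degradation. Oxidants and electrophiles modify KEAP1, NRF2 then reaches the nucleus, pairs with a small MAF protein and binds antioxidant response elements in its target genes. The liver, which meets many reactive drugs and metabolites, is a tissue in which this pathway is well known. Among the other genes here, Nqo1 encodes a quinone reductase and Hmox1 the haem oxygenase that opens the haem ring. Gclc and Gclm encode the catalytic and the modifier subunit of glutamate-cysteine ligase, which starts glutathione synthesis. Txnrd1 encodes the cytosolic thioredoxin reductase, Srxn1 the sulfiredoxin that repairs oxidised peroxiredoxins, Cat the catalase that breaks down hydrogen peroxide, and Sod1 the copper-zinc superoxide dismutase.

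The sequences that bear on these genes are given first, read from the RefSeq GRCm38 FASTA on the plus strand, which is the strand of all the genes shown. The first 3 are the WT ATACseq peaks that held a fully spelled antioxidant response element, TGACTCAGC or its reverse complement GCTGAGTCA, in capitals. The first lay 9633 bp upstream of the Hmox1 TSS at chr8:75083890-75084087, the second 3935 bp upstream of it at chr8:75089591-75089782, and the third 3748 bp upstream of the Gclc TSS at chr9:77750703-77750872. All 3 are intergenic.
Hmox1 distal peak: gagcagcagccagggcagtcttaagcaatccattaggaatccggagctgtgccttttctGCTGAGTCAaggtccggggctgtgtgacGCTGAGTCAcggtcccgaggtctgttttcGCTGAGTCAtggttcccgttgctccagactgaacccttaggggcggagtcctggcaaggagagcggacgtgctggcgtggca
Hmox1 proximal peak: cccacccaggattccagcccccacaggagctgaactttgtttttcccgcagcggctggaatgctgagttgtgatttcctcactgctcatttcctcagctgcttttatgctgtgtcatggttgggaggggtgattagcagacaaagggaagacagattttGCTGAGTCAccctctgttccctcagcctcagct
Gclc upstream peak: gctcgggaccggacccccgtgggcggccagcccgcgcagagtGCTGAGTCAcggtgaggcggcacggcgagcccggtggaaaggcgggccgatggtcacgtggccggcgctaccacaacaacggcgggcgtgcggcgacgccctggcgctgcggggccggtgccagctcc

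The next sequence is shown for contrast, since it holds the same element 2013 bp upstream of the Gclc TSS and overlapped no peak of any list (chr9:77752458-77752586, intergenic).
Gclc element outside peaks: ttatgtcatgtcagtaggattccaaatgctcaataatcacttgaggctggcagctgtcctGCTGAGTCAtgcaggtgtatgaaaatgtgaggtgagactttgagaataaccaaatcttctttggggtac

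Below are sequences around 2 members, Gclm and Srxn1, chosen after their peaks were seen because these differed in place or level between the lists. The Gclm peak of the Uhrf1hepKO list lay wholly upstream of the TSS (chr3:122245330-122245464) and holds the looser core of the element, TGACNNNGC on either strand, in capitals. The Srxn1 line is the part of its RefSeq promoter that precedes the TSS (chr2:152105274-152105515), with the AP-1 motif TGAGTCA in capitals, which overlaps the reverse complement of the spelled element by all of its letters. The last is the only high ATACseq peak near a member that was listed for Uhrf1hepKO and not for WT, 667 bp past the end of Srxn1 (chr2:152112043-152112167, intergenic). It holds none of the 3 motifs.
Gclm upstream peak: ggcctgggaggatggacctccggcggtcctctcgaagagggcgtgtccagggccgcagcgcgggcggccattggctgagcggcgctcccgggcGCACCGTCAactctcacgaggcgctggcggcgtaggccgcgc
Srxn1 promoter: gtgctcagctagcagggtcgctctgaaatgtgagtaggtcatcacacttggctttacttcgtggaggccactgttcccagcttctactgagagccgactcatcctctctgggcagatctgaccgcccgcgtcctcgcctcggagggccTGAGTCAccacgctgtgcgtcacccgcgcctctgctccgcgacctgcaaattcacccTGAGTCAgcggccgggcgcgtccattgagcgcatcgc
Srxn1 downstream peak: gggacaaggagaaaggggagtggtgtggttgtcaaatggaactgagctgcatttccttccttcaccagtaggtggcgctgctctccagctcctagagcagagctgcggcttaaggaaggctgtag

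The lists held 10758 (WT) and 10972 (Uhrf1hepKO) ATACseq peaks and 51702 and 47391 H2A.Z peaks. Each peak has a fold enrichment over the background of its own library, with medians of 4.31, 4.05, 5.12 and 5.35 in the same order. Folds are not scaled between lists, so the values of both genotypes are given side by side. For H2A.Z, the even steps of the folds gave the number of reads piled up at each summit, with a median of 21 in WT and 23 in Uhrf1hepKO, so a typical H2A.Z peak rested on few reads. The depth of the ATACseq libraries is not given in the sources used here. The labels were checked as far as the lists allow. Of 7 hepatocyte marker genes in the annotation, 1 (Alb, Uhrf1hepKO ATACseq) had a peak within 500 bp of its TSS in any list, and 0 of 20 markers of other cell types and tissues had one, so these peaks do not check the tissue. Uhrf1 had an ATACseq peak 803 bp (WT, fold 3.96) and 961 bp (Uhrf1hepKO, fold 4.70) downstream of its TSS, and these do not check the deletion, since the deleted exon is not given in the sources used here.

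The 10 genes had peaks near their TSS more often than protein-coding genes as a whole in all 4 lists. Within 500 bp of the TSS, 6 of 10 had an ATACseq peak in WT, where 25.3% of all protein-coding genes had one, and 7 of 10 in Uhrf1hepKO, where 22.9% had one. For H2A.Z, 7 of 10 had a peak there in WT, against 43.2% of all, and 8 of 10 in Uhrf1hepKO, against 41.9%. Within 10 kb, 7 of 10 had an ATACseq peak in either genotype, beside 34.4% of all protein-coding genes in WT and 32.4% in Uhrf1hepKO. An H2A.Z peak within 10 kb was listed for 9 of 10 in WT and 10 of 10 in Uhrf1hepKO, beside 58.4% and 56.5% of all. The members' promoters were also richer in CpGs. They had a median of 70.5 CpGs within 500 bp of the TSS and all protein-coding genes a median of 41. Of the 7 members at or above that value, 5 had an ATACseq promoter peak in each genotype, beside 44.5% (WT) and 40.3% (Uhrf1hepKO) of the 11040 protein-coding genes at or above it. For H2A.Z, 5 of these 7 members in WT and 6 in Uhrf1hepKO had a promoter peak, beside 69.0% and 67.0% of those genes. The WT count was close to the share of those genes. They share only the lower bound of 41 CpGs and were not matched to the members. The part of CpG content in the counts was not tested. The count of ATACseq promoter peaks in Uhrf1hepKO rested partly on weak peaks. With only peaks of −log10 q of at least 2 it was 4 of 10, without Nqo1, Cat and Sod1, and in WT it was then 5 of 10, without Srxn1. At that threshold 18.1% of all protein-coding genes in Uhrf1hepKO and 20.9% in WT had such a peak.

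**Figure D1:**
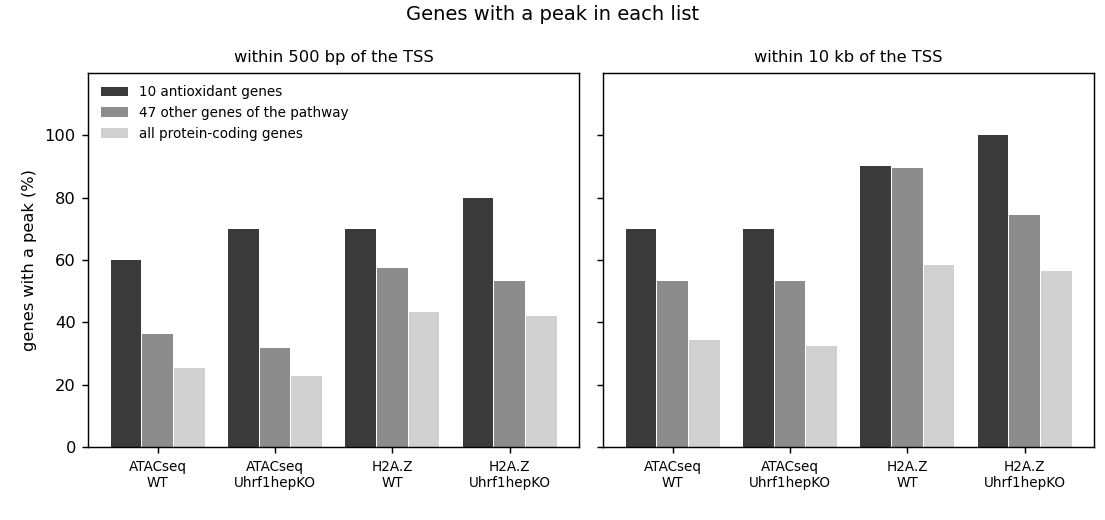
Bars give the percent of the 10 antioxidant genes, of 47 other genes of the pathway and of all protein-coding genes that had a peak within 500 bp (left) or within 10 kb (right) of the TSS in each of the 4 lists, with 1 library behind each list. The bar of the 10 genes is the highest in each group of bars, by the smallest margin for WT H2A.Z within 10 kb, where 9 of 10 members and 42 of 47 other genes had a peak.

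Most peaks at the members were listed in both genotypes, for H2A.Z at about the share of all peaks. The WT ATACseq list held 10 peaks in or around the members, of which 9 overlapped a Uhrf1hepKO peak, where 61.3% of all WT ATACseq peaks did. The Uhrf1hepKO list held 11, of which 9 overlapped a WT peak, where 60.3% of all did. Hmox1 alone gave 4 of the 9 in each list. With only ATACseq peaks of −log10 q of at least 2 in both lists, 6 of 9 (WT) and 6 of 8 (Uhrf1hepKO) overlapped. The share of all peaks was not counted at that threshold. Of 32 WT H2A.Z peaks, 25 overlapped a Uhrf1hepKO peak, beside 70.0% of all, and of 30 Uhrf1hepKO H2A.Z peaks, 23 overlapped a WT peak, beside 75.6% of all. The H2A.Z peaks listed in 1 genotype were mostly low, at the members as over the whole lists. Of the 7 unshared H2A.Z peaks in each list, 6 in each lay below the median fold of their own list, as did 77.7% (WT) and 83.1% (Uhrf1hepKO) of all unshared H2A.Z peaks. The unshared peaks with a fold above it, ATACseq included, were the WT H2A.Z peak in Txnrd1, 26412 bp from the TSS (6.09), the Uhrf1hepKO H2A.Z peak 3333 bp upstream of Sod1 (6.27) and the Uhrf1hepKO ATACseq peak behind Srxn1 (6.59). The nearest peaks left out by the 10 kb limit were H2A.Z peaks upstream of Keap1 at 10612 bp in WT (fold 7.31) and 10604 bp in Uhrf1hepKO (7.20), and upstream of Nfe2l2 at 10296 bp in Uhrf1hepKO (3.49). The peaks just inside it were the H2A.Z peaks 9949 bp (WT, 6.82) and 9954 bp (Uhrf1hepKO, 5.35) upstream of Gclc.

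**Figure D2:**
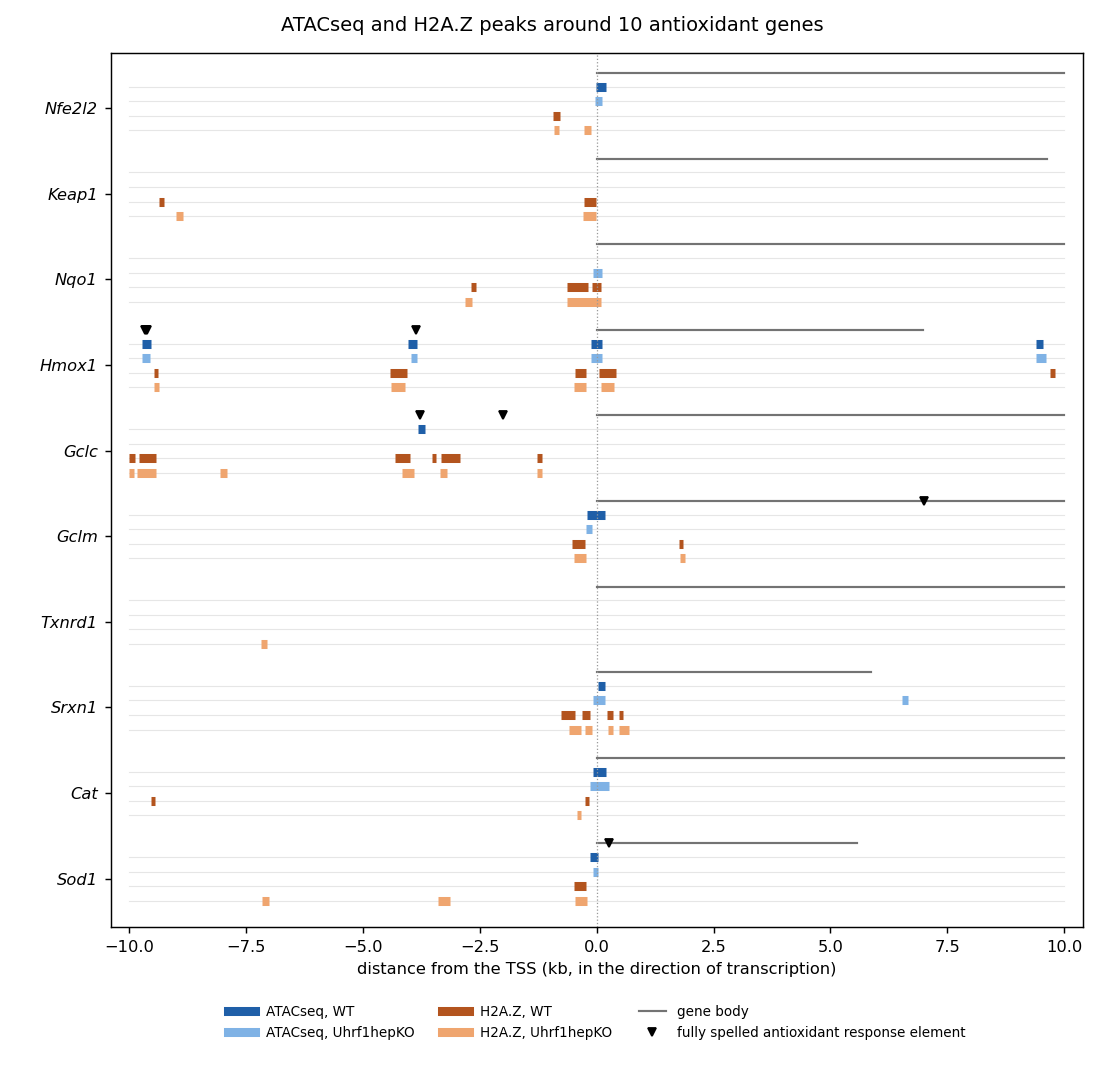
Every peak within 10 kb of the TSS is drawn to scale by its distance from the TSS in kb, with the gene body running to the right, for the 10 genes and the 4 lists, and triangles mark fully spelled antioxidant response elements. ATACseq peaks sit at the TSS in 7 genes, far upstream in Hmox1 and Gclc, and downstream of the gene in Hmox1 and, for Uhrf1hepKO, Srxn1, while Keap1 and Txnrd1 have no ATACseq peak in either genotype.

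Most member ATACseq peaks lay next to an H2A.Z peak, with few on the same bases. The counts below run from the ATACseq side only. Many member H2A.Z peaks had no ATACseq peak nearby, among them all of those at Keap1 and Txnrd1. Of the member ATACseq peaks, 1 of 10 in WT and 2 of 11 in Uhrf1hepKO overlapped an H2A.Z peak of the same liver by at least 1 bp, where 35.3% and 27.2% of all ATACseq peaks did. With a gap of at most 100 bp allowed these counts were 7 of 10 and 6 of 11, near the 58.6% and 50.5% of all ATACseq peaks. Yet 9 of 10 in WT had an H2A.Z summit within 500 bp of their centre on 1 side or both, beside 62.2% of all, and 9 of 11 in Uhrf1hepKO, beside 54.6% of all. Summits on both sides were found for 3 of 10 in WT, at the Hmox1 TSS, upstream of Gclc and at the Srxn1 TSS, where 27.3% of all WT ATACseq peaks had them. In Uhrf1hepKO they were found for 2 of 11, at the Hmox1 and Srxn1 TSSs, where 21.6% of all had them. The distance of 500 bp was chosen after the peaks were seen. The exceptions were the WT peak at Nfe2l2, with its nearest summit at 958 bp, and in Uhrf1hepKO the peaks downstream of Hmox1 and of Srxn1.

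The regulators differed from each other. Nfe2l2 (chr2:75675513-75704641, minus strand) had 1 ATACseq peak in each genotype over its TSS, in the UTR of the first exon. The fold was 3.85 in WT and 4.10 in Uhrf1hepKO, the first at the 27.6th and the second at the 52.0th percentile of its list. Its H2A.Z lay upstream, in E030042O20Rik, a non-coding gene that starts 129 bp from the Nfe2l2 TSS on the opposite strand, so the peaks cannot be given to 1 of these promoters. The WT summit was at 866 bp (fold 5.61, 22 reads, 95% Poisson interval 13.8 to 33.3), and the Uhrf1hepKO summit at 844 bp overlapped it (4.18, 17 reads, 9.90 to 27.2). A further Uhrf1hepKO H2A.Z peak was at 171 bp (3.72, 15 reads), with the nearest WT peak 517 bp away. It alone made Nfe2l2 a promoter H2A.Z gene in Uhrf1hepKO and not in WT, a pattern found in 1.91% of protein-coding genes, and its reads lie below the list median. All such intervals cover counting error only, and reads at a summit are not all independent.

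Keap1 (chr9:21229730-21239361, minus strand) had no ATACseq peak within 10 kb or in the gene in either genotype, although it had 77 CpGs within 500 bp of the TSS. This was not rare for such promoters. Of 4203 protein-coding genes with at least that many CpGs, 49.1% had no ATACseq peak of either genotype within 500 bp. Its promoter carried H2A.Z in both livers, with summits 40 bp (WT, fold 5.36, 21 reads) and 74 bp (Uhrf1hepKO, fold 4.88, 20 reads) upstream. Further H2A.Z peaks at 9273 bp in WT (3.66) and 8928 bp in Uhrf1hepKO (4.42) did not overlap. They lay 191 and 154 bp from the TSS of the neighbouring gene S1pr5, a sphingosine phosphate receptor.

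Nqo1 (chr8:107388225-107403206, minus strand) was the one member with a promoter ATACseq peak in Uhrf1hepKO and none in WT. The Uhrf1hepKO peak was centred 9 bp downstream of the TSS with a fold of 3.56, at the 24.5th percentile of its list, and the nearest WT ATACseq peak was 21714 bp away. It did not pass −log10 q of 2, its value being 1.49. A promoter ATACseq peak in Uhrf1hepKO alone was found in 3.61% of protein-coding genes. H2A.Z covered the Nqo1 promoter in both livers. In WT it formed 2 peaks, with summits at 33 bp (fold 5.85, 23 reads) and 262 bp (6.82, 27 reads) upstream. In Uhrf1hepKO 1 peak of 724 bp covered the place of both, with its summit at 254 bp (8.37, 35 reads, 24.4 to 48.7), and the WT interval at 262 bp (17.8 to 39.3 reads) overlapped it. A smaller pair of peaks at 2623 bp (WT, 3.17) and 2732 bp (Uhrf1hepKO, 3.95) stood further upstream.

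Hmox1 (chr8:75093621-75100589, plus strand) held the highest WT ATACseq peak of all members and had 4 ATACseq peaks in each genotype, more than any other member. The distal upstream peak had a fold of 7.01 in WT and 7.65 in Uhrf1hepKO, at the 95.6th and 97.6th percentile of the lists. The peak nearer the gene had 4.67 in WT and 4.96 in Uhrf1hepKO, with centres 3935 and 3910 bp upstream. At the TSS the folds were 5.56 and 5.28, and at 9477 bp (WT) and 9508 bp (Uhrf1hepKO) downstream they were 4.19 and 3.87. All 4 peaks overlapped between the genotypes, and the downstream peak lay 6471 (WT) and 6440 bp (Uhrf1hepKO) from the TSS of Mcm5, a subunit of the replicative helicase, the nearest protein-coding TSS. Regions upstream of mouse Hmox1 that hold antioxidant response elements are long known as its enhancers. The distal peak printed above held 3 spelled elements, centred 9668, 9640 and 9611 bp upstream, and the nearer peak held 1 at 3867 bp. In each list, 1 ATACseq peak in all had 3 or more copies in the 300 bp around its centre, and it was this distal peak.

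H2A.Z stood beside each upstream Hmox1 peak in both livers. Next to the distal peak, on the side of the gene, the summit was at 9404 bp in WT (fold 4.63, 18 reads, 10.7 to 28.4) and at 9423 bp in Uhrf1hepKO (6.74, 28 reads, 18.6 to 40.5). Next to the nearer peak, on the far side, it was at 4226 bp in WT (5.12, 20 reads) and 4196 bp in Uhrf1hepKO (6.27, 26 reads). Around the TSS, WT summits were at 375 bp upstream (4.71, 24 reads) and 138 bp downstream (5.85, 23 reads), and Uhrf1hepKO summits at 302 bp upstream (4.89, 28 reads) and 295 bp downstream (5.58, 23 reads). The intervals of the reads overlapped between the genotypes at each of these places. A further WT peak, 9723 bp downstream (4.87), had no Uhrf1hepKO counterpart.

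Gclc (chr9:77754535-77794485, plus strand) had no peak of any list within 500 bp of its TSS, although it had 92 CpGs there. Of the 2268 protein-coding genes with at least as many, 597, or 26.3%, also had no promoter peak in any list. Its peaks lay upstream instead. The WT list held an ATACseq peak 3748 bp upstream with a fold of 4.02, at the 36.5th percentile, and the nearest Uhrf1hepKO ATACseq peak was 94942 bp away. The pattern of an ATACseq peak within 10 kb in WT alone was found in 7.90% of protein-coding genes. The sequence of this peak, printed above, is 77.1% G and C with 25 CpGs, and its 1 spelled element was centred 3786 bp upstream of the TSS. In WT, H2A.Z summits flanked the peak at 4078 bp (fold 8.04, 32 reads) on the far side and at 3474 bp (4.87, 19 reads) on the near side. In Uhrf1hepKO, where no ATACseq peak was listed, the far H2A.Z peak was also listed, at 4083 bp (6.74, 28 reads), and a Uhrf1hepKO peak at 3277 bp (7.20, 30 reads) overlapped a further WT peak at 3296 bp (7.56, 30 reads). The other H2A.Z peaks shared by both livers were at 9949 (WT, 6.82) and 9954 bp (Uhrf1hepKO, 5.35), at 9728 (8.77) and 9751 bp (7.67), and at 1220 (5.61) and 1217 bp (6.51). The WT peak at 3474 bp overlapped no Uhrf1hepKO peak, but the nearest was only 72 bp away. A Uhrf1hepKO peak at 7974 bp (4.42) had no WT counterpart. Gclc thus had 6 H2A.Z peaks in each genotype and held the highest WT H2A.Z fold outside Txnrd1 and Gclm.

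**Figure D3:**
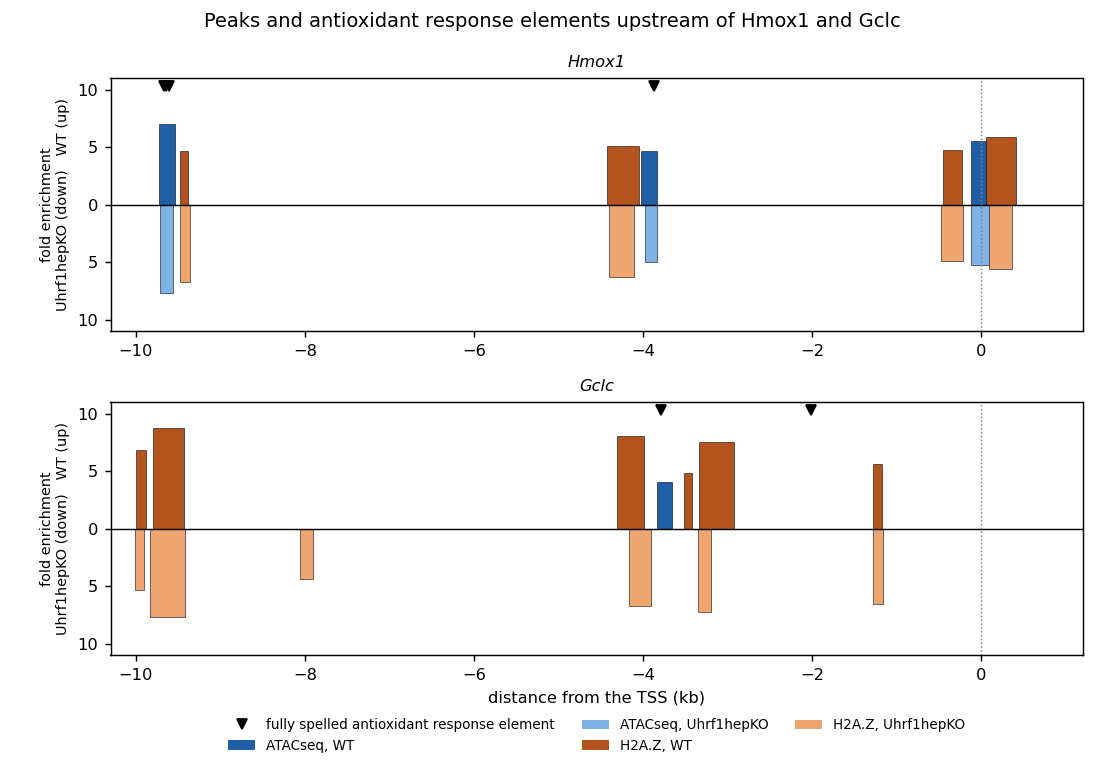
Bars mark the peaks upstream of Hmox1 and Gclc by distance from the TSS in kb, with the height giving the fold enrichment over background of WT upwards and of Uhrf1hepKO downwards, and triangles mark fully spelled antioxidant response elements. At Hmox1 each triangle stands over an ATACseq peak of both genotypes, with H2A.Z beside it, and at Gclc 1 of 2 triangles stands over an ATACseq peak, in WT.

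Gclm (chr3:122245557-122270732, plus strand) had an ATACseq peak at its promoter in both livers, of different shape. In WT it was 377 bp wide, covered the TSS and had a fold of 4.47. In Uhrf1hepKO it was 135 bp wide, lay wholly upstream with its centre at 160 bp, and had a fold of 6.11, at the 91.9th percentile of its list. H2A.Z lay just upstream of both, with summits at 338 bp in WT (fold 9.02, 36 reads, 25.2 to 49.8) and 328 bp in Uhrf1hepKO (8.37, 35 reads, 24.4 to 48.7). These were the strongest promoter H2A.Z peaks among the members in both genotypes, with that of Nqo1 equal to Gclm in Uhrf1hepKO. A lower intronic pair stood at 1795 bp (WT, 5.12) and 1805 bp (Uhrf1hepKO, 4.18) downstream.

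Txnrd1 (chr10:82833951-82897712, plus strand) carried its peaks inside the gene, far from the annotated 5′ end. It had no ATACseq peak in either genotype, and its 5′ end had the fewest CpGs of the members, 14. The annotation gives 8 transcript starts for the gene, of which 4 fall between 25228 and 25308 bp downstream of the first. Just before these, in an intron of the longest transcript, lay the highest WT H2A.Z fold of all members, at 24910 bp (10.7, 43 reads, 31.1 to 57.9). The Uhrf1hepKO summit was at 24930 bp (9.06, 38 reads, 26.9 to 52.2). These summits lay 147 bp (WT) and 127 bp (Uhrf1hepKO) from the TSS of Gm38560, a non-coding gene on the opposite strand. The peaks therefore cannot be given to 1 of these promoters. Another strong pair was at 14456 bp in WT (9.75, 39 reads) and 14473 bp in Uhrf1hepKO (9.99, 42 reads). The latter was the highest Uhrf1hepKO H2A.Z fold of all members. That Uhrf1hepKO peak was 724 bp wide and also overlapped a WT peak at 13990 bp (6.82). WT peaks at 26412 bp (6.09) and 26874 bp (4.63) lay by the starts at 26350 and 26554 bp, and Uhrf1hepKO had 1 there, at 26878 bp (3.95). A WT peak at 25661 bp (3.66) was not listed in Uhrf1hepKO, and a Uhrf1hepKO peak 7140 bp upstream (4.88) was not listed in WT. That last peak was the only one within 10 kb of the annotated 5′ end. An H2A.Z peak within 10 kb in Uhrf1hepKO alone was found in 2.45% of protein-coding genes. Counted from any transcript start, 10 of 10 members had an H2A.Z peak within 10 kb in WT and in Uhrf1hepKO.

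Srxn1 (chr2:152105516-152111376, plus strand) had a weak ATACseq peak at its TSS in both livers and a strong one behind the gene in 1. At the TSS the fold was 3.40 in WT, at the 3.99th percentile of its list, and 3.77 in Uhrf1hepKO. H2A.Z formed a row of 4 peaks on either side in each genotype. In WT the summits were at 530 bp (fold 6.34) and 190 bp (4.39) upstream and 309 bp (7.56) and 501 bp (5.36) downstream, and in Uhrf1hepKO at 515 bp (5.58), 180 bp (6.74), 294 bp (5.58) and 528 bp (3.95). The ATACseq peak behind the gene, listed in Uhrf1hepKO alone, was centred 6589 bp from the TSS with a fold of 6.59, at the 94.7th percentile. The nearest WT ATACseq peak was 6348 bp away, at the TSS of the gene. High peaks seldom lacked a counterpart, since of the 568 Uhrf1hepKO ATACseq peaks at least as high, 35, or 6.16%, had no WT overlap. No H2A.Z summit of Uhrf1hepKO was nearer to it than 6061 bp.

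Cat (chr2:103453849-103485160, minus strand) had an ATACseq peak over its TSS in both livers, with a fold of 5.19 in WT and 3.80 in Uhrf1hepKO, at the 75.9th and 38.7th percentile of the lists. Its promoter H2A.Z fold was the lowest in WT among the 7 members with such a peak. The WT summit was at 189 bp upstream (3.90, 15 reads, 8.40 to 24.7) and the Uhrf1hepKO summit at 391 bp (4.65, 19 reads, 11.4 to 29.7). The peaks were 75 bp apart and did not overlap. WT had a further low peak at 9499 bp upstream (3.17).

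Sod1 (chr16:90220754-90226329, plus strand) had its ATACseq peak centred 67 bp upstream in WT (fold 4.62) and 32 bp upstream in Uhrf1hepKO (3.81). Promoter H2A.Z summits were at 303 bp in WT (5.61, 22 reads) and 270 bp in Uhrf1hepKO (5.81, 24 reads), with overlapping intervals of 13.8 to 33.3 and 15.4 to 35.7 reads. Uhrf1hepKO had 2 more H2A.Z peaks upstream, at 3333 bp (6.27, 26 reads) and 7043 bp (3.01, 15 reads), for which no WT peak was listed. A spelled element 273 bp downstream of the TSS overlapped no peak, with ATACseq peaks 248 (WT) and 243 bp (Uhrf1hepKO) away.

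**Figure D4:**
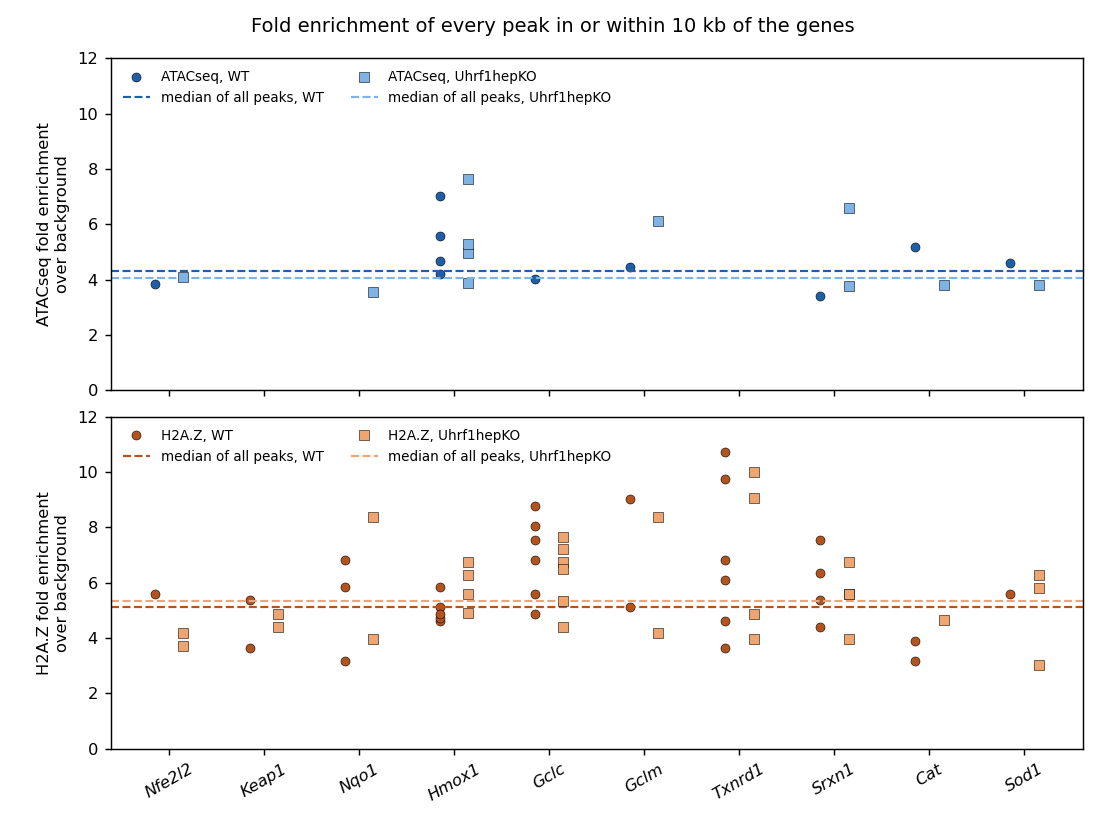
Each point is the fold enrichment over background of 1 peak in or within 10 kb of a member, for ATACseq (top) and H2A.Z (bottom), with circles for WT, squares for Uhrf1hepKO and dashed lines at the median fold of all peaks of each list. The ATACseq folds run from 3.40 to 7.65 and the H2A.Z folds from 3.01 to 10.7, and folds are not scaled between the lists.

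The antioxidant response element was then counted over both strands. The core TGACNNNGC was found in the 300 bp around the centre of 6 of 10 member ATACseq peaks in WT, where 16.2% of all WT ATACseq peaks held it, and of 5 of 11 in Uhrf1hepKO, where 15.1% held it. The spelled TGACTCAGC was found in 3 of 10 in WT, beside 0.756% of all, and in 2 of 11 in Uhrf1hepKO, beside 0.697% of all. The AP-1 motif TGAGTCA was found in 4 of 10 in WT and 3 of 11 in Uhrf1hepKO, beside 4.71% and 4.69% of all, and part of these are the spelled elements themselves. Most of these genes are known targets of NRF2, so the counts are a description. Of the 10 genes, 8 matched the RefSeq promoter table, which gave 10 promoters of 250 bp before to 50 bp after the start, and Hmox1 and Gclc did not match. The core was in 5 of the 10 promoters (Gclm, Nfe2l2, Sod1, Srxn1 and Txnrd1), beside 13.1% of 20150 promoters of protein-coding genes, the spelled element in 0 of 10, beside 0.427%, and TGAGTCA in 1 of 10, that of Srxn1, beside 4.65%. The members' loci, 344316 bp in all, held 9 spelled elements. Of these, 5 lay in a WT ATACseq peak, 4 in a Uhrf1hepKO one and 0 in an H2A.Z peak of either liver. All those in ATACseq peaks were at Hmox1, except 1 at Gclc in WT, and 3 shared the distal Hmox1 peak. Over the genome, 0.229% of 31071 spelled elements lay in a WT ATACseq peak and 0.200% in a Uhrf1hepKO one. Those were taken from anywhere in the genome, while the members' loci lie around genes and TSSs, so the sets are not matched. The 4 outside all peaks were those 2013 bp upstream of Gclc and 273 bp downstream of the Sod1 TSS, and one each in introns of Gclm and Cat, 7003 and 11603 bp downstream.

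Among 47 other genes of the pathway, the share with a promoter peak lay between that of the members and that of all protein-coding genes. ATACseq promoter peaks were listed for 17 in WT and 15 in Uhrf1hepKO, beside 25.3% and 22.9% of all protein-coding genes. H2A.Z promoter peaks were listed for 27 and 25, beside 43.2% and 41.9% of all. The same shares stand beside the promoter counts of each group below. The regulators, which include the cullin Cul3, the small MAF genes and the competing repressor Bach1, had ATACseq promoter peaks in 6 of 10 in WT and 7 of 10 in Uhrf1hepKO. Bach1 was listed in WT alone, as were 5.95% of all protein-coding genes, and Mafg and Mafk in Uhrf1hepKO alone, as were 3.61% of all. H2A.Z promoter peaks were most frequent among the thioredoxin and peroxiredoxin genes, in 7 of 8 in WT and 6 of 8 in Uhrf1hepKO, and among the genes that supply NADPH, in 5 of 6 in both. The conjugation and export genes had few H2A.Z promoter peaks, at Ephx1 and Gstm1 in WT and at Gstm1 in Uhrf1hepKO, of 7 genes. Within 10 kb, all 7 had an H2A.Z peak in WT and 4 did in Uhrf1hepKO, beside 58.4% and 56.5% of all protein-coding genes. Of 7 glutathione genes, Gpx1 and Gss had ATACseq promoter peaks in WT and 0 had one in Uhrf1hepKO, beside the 25.3% and 22.9% of all protein-coding genes given above. Within 10 kb, 3 of them in WT and 2 in Uhrf1hepKO had an ATACseq peak, beside 34.4% and 32.4% of all protein-coding genes.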

How the data were processed

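ATACseq and H2A.Z ChIPseq peak lists of 1 WT and 1 Uhrf1hepKO liver were used. The authors aligned reads to GRCm38.p4 with BWA-MEM, used PICARD (deduplication is stated for ChIPseq) and called peaks per library with MACS2 at p 0.05. The submitters' processing notes also name FastQC 0.11.5 and Trimmomatic. ATACseq reads are described as single-end but were called with the paired-end option, in broad mode. The H2A.Z mode, the MACS2 version, a control and a read shift are not given in the sources used here. Each deposited peak has a score made for display, a fold enrichment over local background (a ratio), and −log10 p- and q-values. The deposited narrow lists also give the summit as another value, its offset in bp. The highest q was 0.0997 and 0.0993 (ATACseq, WT and Uhrf1hepKO) and 0.0500 and 0.0489 (H2A.Z). The deposited lists thus ended near a q of 0.1 (ATACseq) and 0.05 (H2A.Z), while the stated threshold is a p.

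Scaffolds, patches and mitochondrial peaks were dropped, which left chromosomes 1 to 19, X and Y (10582, 10764, 51450 and 47135 in the same order as the lists above). Positions are 1-based on GRCm38. Genes came from GENCODE vM21, with the TSS at the 5′ end of the gene, and sequences and promoters from RefSeq (GRCm38.p6, whose chromosomes are those of GRCm38.p4). Distances run from the TSS to the centre of an ATACseq peak or the summit of an H2A.Z peak. An overlap needed 1 bp. Reads at H2A.Z summits were recovered from a fold of pileup plus 1 over background plus 1. For most peaks the background was 3.10 (WT) and 3.30 (Uhrf1hepKO) reads per base. For the others it was fitted peak by peak, as just upstream of the Hmox1 TSS (4.30 in WT and 4.93 in Uhrf1hepKO). Folds fell on a whole step within 0.01 for 94.1% and 91.7% of the peaks, and a pileup that fitted fold and p was found for 100% of them. Intervals are exact Poisson at 95%. Functions were checked on data with known answers. All peaks of the members were named. The members, the lists of other pathway genes and the markers were chosen with earlier results of these data known. Python 3.11.15, pandas 2.3.3 and scipy 1.17.1 were used. No test between genotypes was possible.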

Additional observations from a re-analysis of the deposited data

How the results depend on the processing

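Each of 23 counts and shares was recomputed under its alternatives, 110 values in all, of which 87 stayed within 1.5 times the count or within the 95% Wilson interval of the share. With only peaks of −log10 q of at least 2, ATACseq peaks in Uhrf1hepKO were left at 4 members within 10 kb and 4 within 500 bp. After dropping peaks whose fold was under their list's median, members with an ATACseq peak within 10 kb were 4 in WT and 4 in Uhrf1hepKO and within 500 bp 3 in Uhrf1hepKO, those with H2A.Z in Uhrf1hepKO were 6 within 10 kb and 5 within 500 bp, and member peaks numbered 6 and 6 (ATACseq) and 21 and 17 (H2A.Z, WT and Uhrf1hepKO), as fewer peaks remain by construction. In the gene body alone there were 6 and 6 ATACseq and 11 and 8 H2A.Z peaks. Member ATACseq peaks that overlapped H2A.Z were 0% in WT when 50% of the shorter peak had to be covered, and 70% (WT) and 54.5% (Uhrf1hepKO) when a gap of at most 100 bp was allowed. In place of the core, TGACTCAGC was in 3 (WT) and 2 (Uhrf1hepKO) ATACseq peaks and 0 promoters, and TGAGTCA in 3 Uhrf1hepKO peaks and 1 promoter. The distances of 300 bp and 1 kb for H2A.Z summits were added after seeing the data. No paired analysis was possible because each genotype has 1 library per assay, and for the same reason no library could be left out. Depth limits the reading of low peaks, since the lowest H2A.Z summits rested on 11 (WT) and 12 (Uhrf1hepKO) reads, and a peak missing from a list is a signal under its threshold, not an absence.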
